A study of Mus musculus with 12 samples.

Results

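Glycolysis and the response to low oxygen were followed through 38 genes in mouse embryonic ventricles. The 38 are a set list of glucose transporters, enzymes of glycolysis, enzymes and transporters of lactate, regulators of glycolytic flux, oxygen sensors and targets of the hypoxia response. They were looked up by name among the 38293 gene identifiers of the count table, and all 38 were found and passed the filter on low counts. PolyA RNA of E15.5 ventricles was sequenced in 4 genotypes, with 3 pools per genotype and 4 pairs of ventricles in each pool. The Mib1 mutant was Mib1 R530X/flox; Tnnt2-Cre/+, which joins a premature stop allele to a loxP-flanked one in the presence of a Cre recombinase driven by the cardiac troponin T promoter. Its control, named the Cre control here, was Mib1 flox/+; Tnnt2-Cre/+. The triple heterozygote had 1 copy each of Mib1 R530X, of an Asxl3 missense allele (M1361V in the design text, M1415V in the genotype labels) and of Apcdd1 V150I, and was compared with WT embryos. Tnnt2-Cre acts in cardiomyocytes, whereas the stop allele is present in every cell of the Mib1 mutant and of the triple heterozygote. The Cre control shares the driver and 1 flox allele with the Mib1 mutant, and differs from WT by both.

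Glycolysis splits glucose into pyruvate in the cytosol, and lactate dehydrogenase exchanges pyruvate and lactate. The embryonic heart relies heavily on this pathway before it turns to fatty acids around and after birth. When oxygen is low, prolyl hydroxylases stop marking the alpha subunits of hypoxia-inducible factor (HIF) for destruction. The stabilised subunits pair with Arnt, bind hypoxia response elements, and raise transcription of glucose transporters, glycolytic enzymes and genes such as Bnip3 and Egln3.

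The deposited values were RSEM expected counts, estimated numbers of reads per gene. Library totals were 10103548 to 22157720, the highest being that of triple heterozygote pool 2 and the next 14774121. Levels are given in CPM, counts scaled to a common library size, and 1 read was worth 0.0452 to 0.0991 CPM. Mib1 itself was at 54.8, 50.1 and 51.8 CPM in the Mib1 mutant pools, against 108, 107 and 101 CPM in Cre control pools. It was at 74, 57.9 and 74.1 CPM in the triple heterozygote pools, against 145, 126 and 136 CPM in the WT pools. It fell by 1.01 on the log2 scale (SE 0.09) in the Mib1 mutant and by 0.99 (SE 0.09) in the triple heterozygote. The quasi-likelihood test of edgeR, adjusted by the method of Benjamini and Hochberg over all 13964 genes tested, gave p-values of 4.75e-05 and 0.000276, and such a value is called an edgeR adjusted p in what follows. Each of the 13 cardiomyocyte markers had counts in all 12 pools, while the 11 skeletal muscle markers summed to 9.88 to 41.2 CPM. Of these 11, Myf5 and Pax7 were at 0 in all 12 pools and Myod1, Myf6, Myh3 and Tnnc2 in some, and Tnni2 was the highest at 4.25 to 13.1 CPM. Pools are separate collections of ventricles, but whether they shared litters is not stated, so p-values measure the spread between these pools. In such bulk tissue, fewer cells of a type and less RNA per cell cannot be told apart.

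Along the first principal component (28% of the variance) the 6 pools of the Cre line lay at -24.5 to -9.39 and the 6 triple heterozygote and WT pools at 11.8 to 18.5. The Mib1 mutant pools 1, 2 and 3 lay at -24.5, -16.6 and -21.2, so pool 2 was the farthest from the rest of its group on this axis. Between Mib1 mutant and Cre control, 210 genes had an edgeR adjusted p under 0.05. Without Mib1 mutant pool 2 there were 415, and without pool 1 there were 161. Pool 1 differed from its group in other features. Mib1 mutant pool 1 held 0.095 CPM of Xist, the RNA of the inactive X chromosome, and Cre control pool 1 held 0.387 CPM, against 71.5 to 458 CPM in the other 10 pools. Mib1 mutant pool 1 also had the lowest summed level of the cardiomyocyte markers, 44300 CPM, against 53700 and 51800 CPM in the other two Mib1 mutant pools and 53000 to 60100 CPM in the other three groups. Results that rest on it are given with and without it.

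Upstream sequence is shown for 5 genes picked from the list, so that the cores of hypoxia response elements near their starts can be read. Not every gene of the list had a core, and the RefSeq promoter of Eno2 had none. Each run is the 250 bases before a RefSeq transcript start in GRCm38.p6, written 5′ to 3′ on the strand of the gene. Capitals mark ACGTG or GCGTG on either strand, so that CACGT and CACGC are the same cores on the other strand. Aldoc lies at chr11:78322823-78323072, plus strand, and Ldhb at chr6:142507958-142508207, minus strand. Bnip3 lies at chr7:138909507-138909756, minus strand, Egln3 at chr12:54203875-54204124, minus strand, and Ankrd37 at chr8:45999851-46000100, minus strand.
Aldoc: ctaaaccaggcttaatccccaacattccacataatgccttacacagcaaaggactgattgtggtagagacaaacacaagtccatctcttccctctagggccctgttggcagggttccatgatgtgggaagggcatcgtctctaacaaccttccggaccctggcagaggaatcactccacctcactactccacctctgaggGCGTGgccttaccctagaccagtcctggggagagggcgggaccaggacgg
Ldhb: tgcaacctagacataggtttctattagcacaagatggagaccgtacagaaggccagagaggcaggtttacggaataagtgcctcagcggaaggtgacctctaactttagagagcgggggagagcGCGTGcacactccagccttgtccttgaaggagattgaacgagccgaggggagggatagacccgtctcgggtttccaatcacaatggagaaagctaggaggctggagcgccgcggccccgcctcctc
Bnip3: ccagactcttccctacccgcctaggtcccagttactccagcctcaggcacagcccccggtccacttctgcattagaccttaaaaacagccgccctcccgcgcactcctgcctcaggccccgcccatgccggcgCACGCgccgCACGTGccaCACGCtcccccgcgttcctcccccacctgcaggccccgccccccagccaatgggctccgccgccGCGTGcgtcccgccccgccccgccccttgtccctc
Egln3: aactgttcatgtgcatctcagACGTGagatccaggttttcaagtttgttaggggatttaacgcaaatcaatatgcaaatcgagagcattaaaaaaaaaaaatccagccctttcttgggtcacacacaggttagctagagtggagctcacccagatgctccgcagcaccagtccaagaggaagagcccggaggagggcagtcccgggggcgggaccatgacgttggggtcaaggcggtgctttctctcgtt
Ankrd37: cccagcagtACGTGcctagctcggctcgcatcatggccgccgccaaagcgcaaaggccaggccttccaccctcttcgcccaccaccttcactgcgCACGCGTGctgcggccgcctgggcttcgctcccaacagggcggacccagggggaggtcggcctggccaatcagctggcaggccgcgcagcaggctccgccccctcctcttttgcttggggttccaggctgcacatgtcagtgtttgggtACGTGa
Bnip3 had 5 cores in this window, among them a CACGTG that reads as ACGTG on both strands, and Ankrd37 had 4, of which 2 overlap. Aldoc, Ldhb and Egln3 had 1 each. A second RefSeq start of Aldoc lies inside the gene, and the 250 bases before it (chr11:78323948-78324197, not printed) also had 1. RefSeq promoters of 300 bases, 250 before and 50 after the start, were found for 35 of the 38 genes, and 31 of these had either core in at least 1 promoter. Over their 53 promoters, ACGTG was present in 49.1% and GCGTG in 56.6%, against 19.6% and 32.4% of all 32851 promoters in the table. The palindrome CACGTG, which contains ACGTG, was present in 13.2% of the 53 and 7.15% of all. GC content was 60.1% on average in the 53 promoters and 53.8% in all, and its part in these shares was not tested. Targets of the hypoxia response are on the list by choice, so a larger share than in all promoters can follow from that choice. Some windows of Eno1, Aldoa and Pfkm overlap, so 1 core can be counted more than once. A match is a description of the letters and not a binding site.

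Levels of different genes were compared per kilobase of exonic length, and the 12 highest genes of the list were all enzymes of glycolysis or lactate, down to Gpi1 at 137 CPM per kilobase. Aldoa (aldolase A) averaged 656 CPM per kilobase over the 12 pools and Pgk1 (phosphoglycerate kinase) 570, followed by the lactate dehydrogenase subunits Ldhb at 514 and Ldha at 483. Tpi1 (triose phosphate isomerase), Pkm (pyruvate kinase of muscle and most other tissues), Pgam2 and Pgam1 (phosphoglycerate mutases) lay between 304 and 402 CPM per kilobase. At the low end were Eno2 (the enolase of neurons) at 1.17, Pfkfb1 at 0.69 and Pfkfb4 at 0.592 CPM per kilobase. Pgk1, Ldha and Tpi1 varied little between pools. The highest pool was 1.12 times the lowest for Pgk1 and Ldha and 1.15 times for Tpi1, against 9.3 times for Eno2, 3.02 times for Slc2a3 and 2.51 times for Ankrd37.

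**Figure D1:**
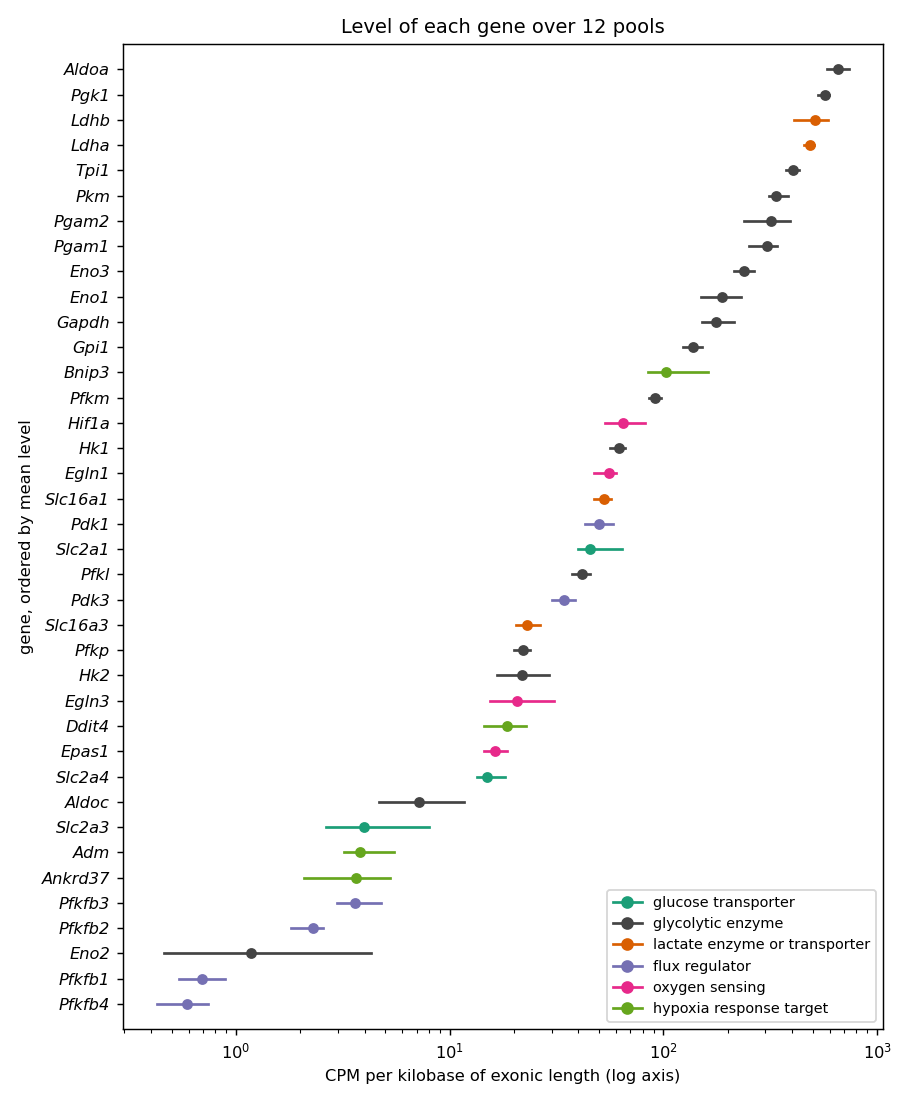
Level of each of the 38 genes in CPM per kilobase of exonic length (log axis), with the mean over 12 pools as a point and the lowest to highest pool as a line, coloured by role. Aldoa is highest at 656 and Pfkfb4 lowest at 0.592, and Eno2 has the widest range.

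The Mib1 mutant was compared with the Cre control first. Of the 38 genes 2 passed the test. Aldoc, the aldolase form best known from brain, rose, and Ldhb, the heart-type subunit of lactate dehydrogenase, fell. Among all 13964 genes, 1.5% were called at an edgeR adjusted p under 0.05 (0.909% higher and 0.594% lower), beside 5.26% of the 38. At an unadjusted p under 0.05 there were 6 of 38 (15.8%), beside 14% of all genes. The median log2 fold change of the 38 was -0.03, beside 0 for all genes, with 15 positive and 23 negative values. Pools did not overlap in 3 genes that were higher in the Mib1 mutant (7.89%, beside 8.86% of all genes) and in 3 that were lower (7.89%, beside 7.75%), shares near the background.

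**Figure D2:**
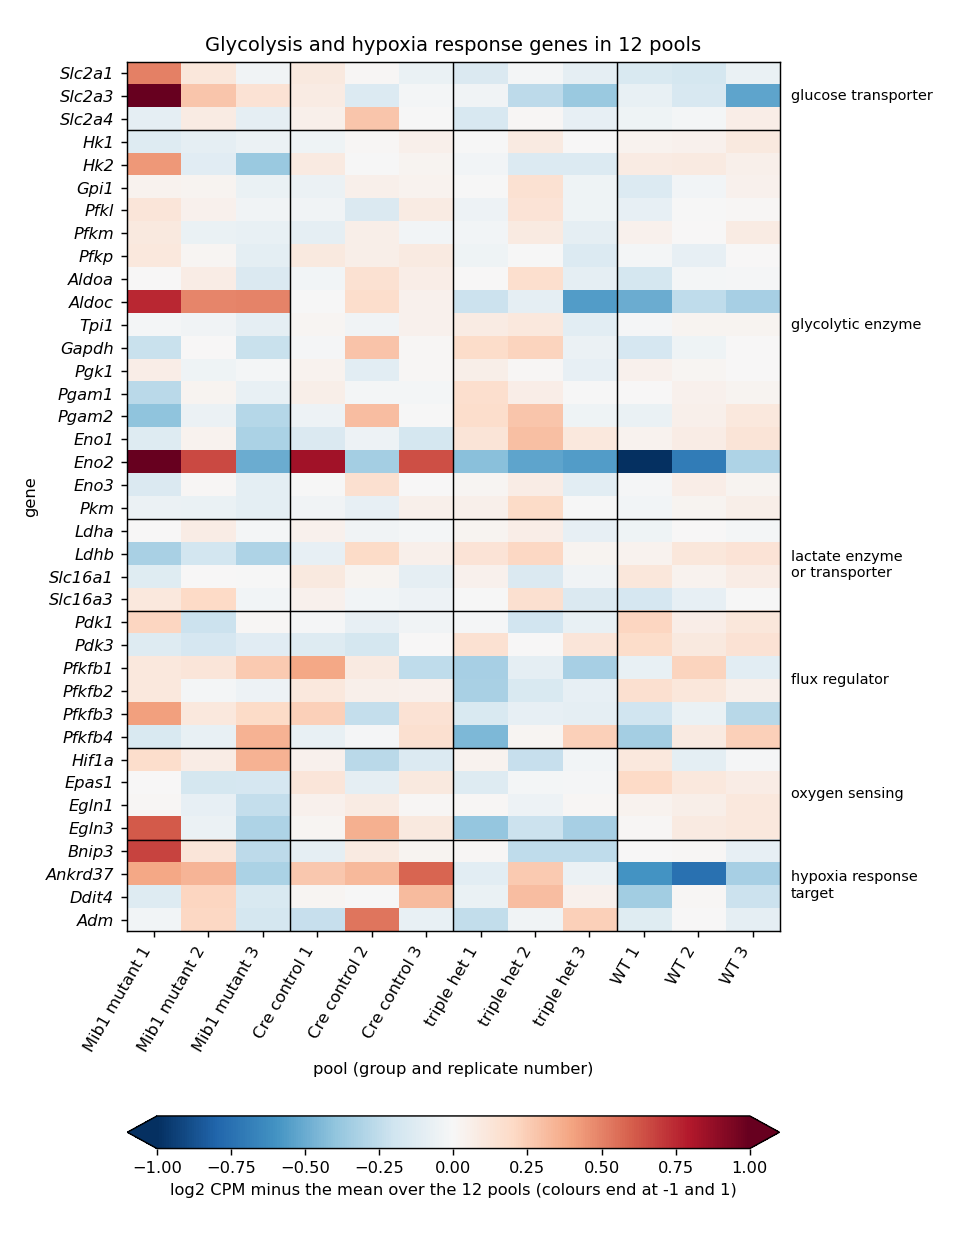
Each of the 38 genes in each of 12 pools, as log2 CPM minus the mean over the pools of that gene, with genes grouped by role. Mib1 mutant pool 1 is red for Slc2a3, Eno2, Egln3 and Bnip3, and Aldoc is red in all 3 Mib1 mutant pools.

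Aldoc (GRCm38 chromosome 11, 78322968 to 78327781) was at 38, 31.7 and 31.8 CPM in the Mib1 mutant pools, against 22.5, 25.5 and 23.3 CPM in the Cre control pools. All 3 Mib1 mutant pools were above the other 9, since the triple heterozygote held 15.3 to 21.2 CPM and WT 16 to 18.9 CPM. Its log2 fold change was 0.51 (SE 0.12, 95% interval 0.26 to 0.76), at an edgeR adjusted p of 0.0428. Ldhb (chromosome 6, 142490249 to 142507957) was at 640, 704 and 646 CPM in the Mib1 mutant pools, against 758, 913 and 830 CPM in the Cre control pools. The 3 Mib1 mutant pools were the lowest of the 12, with 816 to 926 CPM in the triple heterozygote and 823 to 883 CPM in WT. Ldhb fell by 0.33 on the log2 scale (SE 0.08, 95% interval -0.49 to -0.17), at an edgeR adjusted p of 0.0451.

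Both calls lay close to the threshold and were lost in 8 of the 12 fits that left out 1 pool, with the same direction in each. Aldoc had an edgeR adjusted p of 0.179 and 0.0659 without Mib1 mutant pool 1 or 3, 0.148, 0.0828 and 0.148 without Cre control pool 1, 2 or 3, 0.057 without triple heterozygote pool 1, and 0.063 and 0.0683 without WT pool 2 or 3. For Ldhb the edgeR adjusted p was 0.135 and 0.119 without Mib1 mutant pool 1 or 3, 0.211 and 0.128 without Cre control pool 2 or 3, 0.0563 without triple heterozygote pool 1, and 0.0644, 0.0791 and 0.0757 without WT pool 1, 2 or 3. A fit restricted to the 6 libraries called 0 of the 38 genes (edgeR adjusted p 0.0692 for Aldoc and 0.161 for Ldhb), beside 93 genes in all (0.687%). With all 12 libraries, 2 of the 38 were called by DESeq2, beside 2.99% of all genes, and 2 by limma-voom, beside 1.49%. Without both pools with Xist near 0 the edgeR adjusted p was 0.352 for Aldoc and 0.086 for Ldhb.

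Markers of the ventricular cell types also had other summed levels in this comparison. The summed level of the 13 cardiomyocyte markers was 44300 to 53700 CPM in the Mib1 mutant, against 54200 to 60100 CPM in the Cre control, with 11 negative and 2 positive fold changes, a median of -0.22 and 0 called. Leukocyte markers summed to 47.3 to 65 CPM in the Mib1 mutant, against 76.5 to 98.1 CPM in the Cre control, with 2 of 9 called lower. The 8 fibroblast markers summed to 4710 to 5850 CPM in the Mib1 mutant, against 4300 to 4370 CPM in the Cre control, with 8 positive fold changes and 0 called. Atrial markers summed to 1020 to 1750 CPM in the Mib1 mutant, against 1800 to 1860 CPM in the Cre control, with 1 of 7 called higher and 1 lower. Most of the 7 went the other way than the sum, with 5 positive and 2 negative fold changes and a median of 0.14. The 6 epicardial markers summed to 110 to 140 CPM in the Mib1 mutant, against 96.2 to 104 CPM in the Cre control, with 6 positive fold changes and 1 called. The 4 smooth muscle markers overlapped, at 1180 to 1970 CPM in the Mib1 mutant and 1320 to 1410 CPM in the Cre control, with 1 called higher. Endothelial markers (1010 to 1200 CPM in the Mib1 mutant and 1010 to 1100 CPM in the Cre control) and erythroid markers (3680 to 5010 CPM in the Mib1 mutant and 4600 to 5250 CPM in the Cre control) overlapped, with 0 called. Of 11 tested immediate early and heat shock genes, 10 had positive fold changes and 0 were called, and all 12 of the list summed to 229 to 295 CPM in the Mib1 mutant, against 204 to 235 CPM in the Cre control. The part of these levels in the changes of Ldhb and Aldoc was not tested.

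Glucose transporters had 0 of 3 called. Slc2a3 (GLUT3, a high-affinity glucose transporter) was at 58.2, 33.5 and 30.5 CPM in the Mib1 mutant pools, against 29.3, 25.1 and 27.2 CPM in the Cre control pools. The groups did not overlap, but pool 1 alone lay far above the rest. The log2 fold change was 0.58 (SE 0.19, edgeR adjusted p 0.164), and 0.23 without Mib1 mutant pool 1. Slc2a1 (GLUT1, the main fetal form) was at 224, 171 and 154 CPM in the Mib1 mutant pools, against 169, 159 and 151 CPM in the Cre control pools, which overlapped. Its log2 fold change was 0.20 (SE 0.11) with all pools and 0.02 without Mib1 mutant pool 1. Slc2a4 (GLUT4, the insulin-dependent form) differed by -0.14 (SE 0.09). RSEM gave Slc2a3 values that were not whole in 11 of 12 libraries, a sign of reads shared with other genes.

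Among the other 16 glycolytic enzymes 0 were called. Hexokinase 1 (Hk1), which phosphorylates glucose, was at 481, 494 and 506 CPM in the Mib1 mutant pools, against 511, 530 and 544 CPM in the Cre control pools. This was a small difference of -0.10 (SE 0.06) without overlap. Hk2, a relative of Hk1 that is an insulin-dependent hexokinase and HIF target, was at 173, 119 and 99.4 CPM in the Mib1 mutant pools. The Cre control pools held 137, 128 and 131 CPM of it. The Mib1 mutant thus held both the highest and the lowest Hk2 values of these 6 pools, and the difference was -0.02 (SE 0.14) with all pools and -0.28 without Mib1 mutant pool 1. Glucose phosphate isomerase (Gpi1) and the phosphofructokinases of liver (Pfkl), muscle (Pfkm) and platelets (Pfkp) differed by -0.01, 0.07, 0.01 and -0.07, with SE of 0.07 to 0.08. Aldoa differed by -0.09, Tpi1 by -0.06, Pgk1 by 0.02 and Pkm by -0.05, with SE of 0.06 to 0.08.

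Gapdh (glyceraldehyde phosphate dehydrogenase) was at 623, 732 and 624 CPM in the Mib1 mutant pools, against 724, 886 and 736 CPM in the Cre control pools. Its groups overlapped by a narrow margin, and the difference was -0.25 (SE 0.10, edgeR adjusted p 0.26). Muscle phosphoglycerate mutase, Pgam2, was at 201, 254 and 217 CPM in the Mib1 mutant pools, against 256, 328 and 264 CPM in the Cre control pools. No Mib1 mutant pool reached the lowest Cre control pool, and the difference was -0.33 (SE 0.11, edgeR adjusted p 0.163). Pgam1 differed by -0.11 (SE 0.08), the muscle enolase Eno3 by -0.13 (SE 0.07) and the widespread enolase Eno1 by -0.01 (SE 0.08). Eno2 was at 20.1, 6.9 and 3.1 CPM in the Mib1 mutant pools, against 7.83, 3.45 and 6.83 CPM in the Cre control pools. Its log2 fold change was 0.72 with all pools and -0.28 without Mib1 mutant pool 1. Values that were not whole occurred in 12 libraries for Gapdh, 11 for Eno1 and 10 for Pgam1, so their counts depend on how RSEM divided shared reads.

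Of the genes for lactate, only Ldhb was called. Ldha, the subunit prevalent in skeletal muscle, was at 1600, 1680 and 1580 CPM in the Mib1 mutant pools, against 1650, 1560 and 1580 CPM in the Cre control pools, a difference of 0.02 with a 95% interval of -0.10 to 0.15. The lactate transporters Slc16a1 (MCT1) and Slc16a3 (MCT4) differed by -0.05 (SE 0.07) and 0.11 (SE 0.09). Regulators of flux had 0 of 6 called. The kinases that inhibit pyruvate dehydrogenase, Pdk1 and Pdk3, differed by 0.05 (SE 0.09) and -0.04 (SE 0.07). Pfkfb1 to Pfkfb4 encode bifunctional enzymes that make and remove an activator of phosphofructokinase, and they differed by 0.08, -0.05, 0.18 and 0.03, with SE of 0.10 to 0.25.

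Oxygen sensing genes had 0 of 4 called. Hif1a, the ubiquitous HIF alpha subunit, was at 428, 401 and 483 CPM in the Mib1 mutant pools, against 392, 315 and 345 CPM in the Cre control pools. Every Mib1 mutant pool was above every Cre control pool, by a margin of 401 to 392 CPM at the closest, and WT pool 1 at 408 CPM lay within the Mib1 mutant range. The difference was 0.32 (SE 0.10, 95% interval 0.11 to 0.53), at an edgeR adjusted p of 0.128. Epas1, the HIF alpha subunit prominent in endothelium, differed by -0.16 (SE 0.08), and the main oxygen-dependent hydroxylase Egln1 by -0.15 (SE 0.07), with edgeR adjusted p of 0.389 and 0.371. Egln3, a hydroxylase that is itself a HIF target, was at 82.3, 51.6 and 43.4 CPM in the Mib1 mutant pools, against 54.4, 68.6 and 57.5 CPM in the Cre control pools. Of these 6 pools the highest and the 2 lowest were all Mib1 mutant pools, and the difference was -0.03 with all pools and -0.35 without Mib1 mutant pool 1.

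Targets of the hypoxia response had 0 of 4 called. Bnip3, a receptor for the removal of mitochondria, was at 367, 250 and 192 CPM in the Mib1 mutant pools, against 216, 244 and 234 CPM in the Cre control pools, again with the highest and the lowest of the 6 in the Mib1 mutant. The difference was 0.22 (SE 0.16) with all pools and -0.07 without Mib1 mutant pool 1. Ankrd37, an ankyrin repeat protein known as a HIF target, differed by -0.24 (SE 0.20). Ddit4 (an inhibitor of mTOR signalling) and Adm (the vasodilator adrenomedullin) differed by -0.13 (SE 0.13) and -0.10 (SE 0.20). Bnip3 shares 504 exonic bases with Gm45507 on the opposite strand, and Ankrd37 shares 406 with Lrp2bp and Ufsp2. The kit keeps the strand, but the strand setting of the count is not given in the sources used here.

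**Figure D3:**
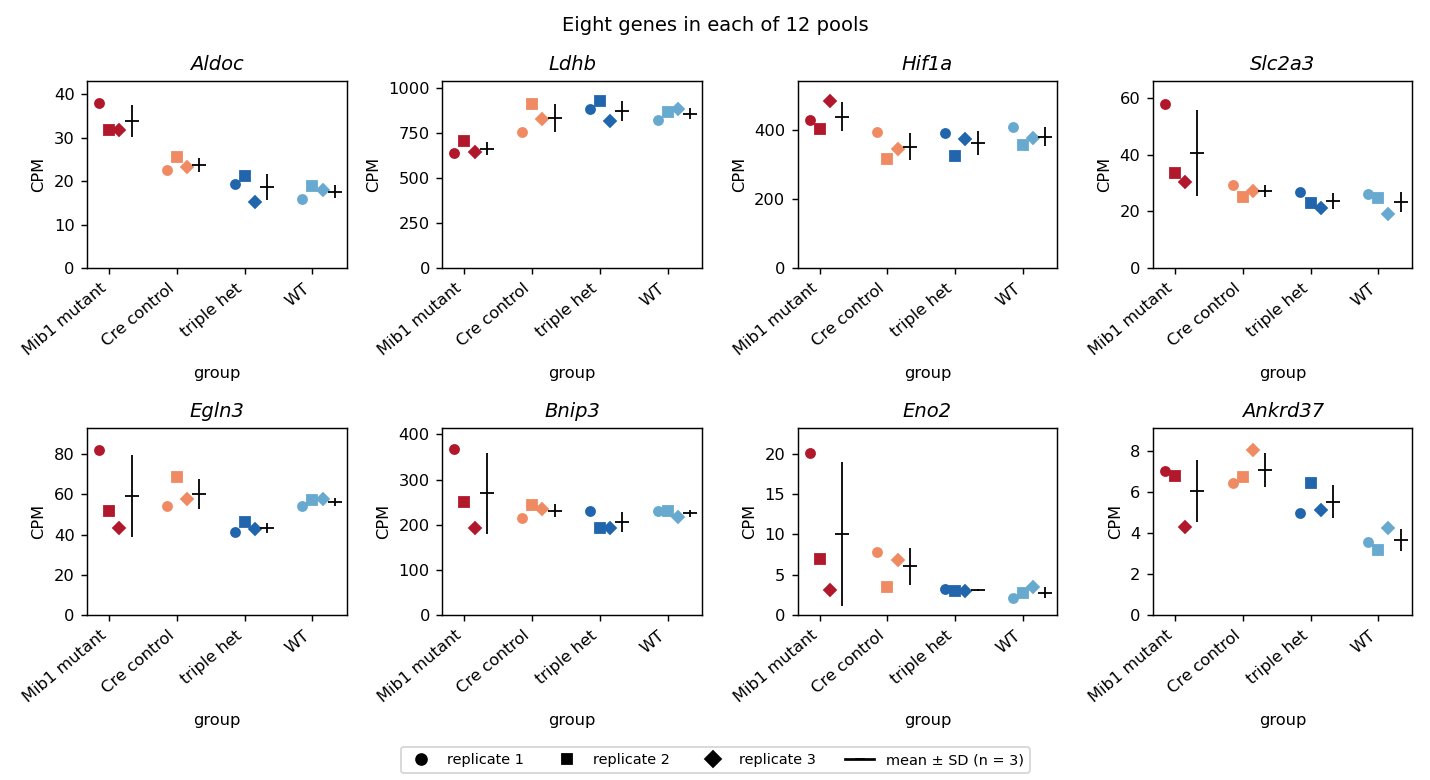
CPM of 8 of the genes in each pool (circle, square and diamond for replicates 1, 2 and 3), with the mean and SD of each group (n = 3). Aldoc is highest and Ldhb lowest in the 3 Mib1 mutant pools, while Slc2a3, Egln3, Bnip3 and Eno2 have their highest value in Mib1 mutant pool 1 alone.

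Several of these genes varied more among the 3 Mib1 mutant pools than between the groups. Relative to the mean of the other two Mib1 mutant pools, pool 1 held 4.03 times as much Eno2, 1.82 times Slc2a3, 1.73 times Egln3, 1.66 times Bnip3, 1.59 times Hk2 and 1.38 times Slc2a1. At 1.5 times or more lay 5 of the 38 genes (13.2%), beside 4.92% of all genes. The trunk of the pathway did not share this, with ratios of 1.03 for Aldoa and Tpi1, 1.07 for Pgk1, 1.02 for Pkm and 0.983 for Ldha, and Pgam1 (0.842) and Pgam2 (0.854) lay below 1. Cre control pool 1, the other pool with Xist near 0, held 7.83 CPM of Eno2, 29.3 of Slc2a3, 137 of Hk2 and 169 of Slc2a1. Each of these was the highest of the 3 Cre control pools. Its 54.4 CPM of Egln3 and 216 CPM of Bnip3 were the lowest of the 3.

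A second list of 40 tested HIF pathway and target genes, which holds none of the 38, was set beside them. Like the 38, it was chosen with earlier results of these data known. Of the 40, 22 (55%) had their highest CPM of all 12 pools in Mib1 mutant pool 1, as did 11 of the 38 (28.9%) and 15.3% of all genes tested. In each of the other 11 pools the share of the 40 with their highest CPM was at most 10%. Mib1 mutant pool 1 also held the lowest CPM of 6 of the 38 (15.8%), 1 of the 40 (2.5%) and 16.3% of all genes. Its median log2 deviation from the other 11 pools was 0.03 over the 38, 0.32 over the 40 and 0.01 over all genes. Ndrg1 was at 109 CPM in Mib1 mutant pool 1 and at most 67.8 CPM in the other 11 pools, Mxi1 at 82.8 against at most 59.3 CPM, and Rora at 34.1 against at most 19.4 CPM. The median log2 fold change of the 40 between Mib1 mutant and Cre control was 0.09 with all pools and -0.06 without Mib1 mutant pool 1. These 3 examples were chosen after their values were seen, and the share is a description of 1 library. The low cardiomyocyte sum and the near absence of Xist in this pool stand beside it. Its sums of immediate early and heat shock genes (295 CPM) and of endothelial markers (1200 CPM) were also the highest of the 12 pools. Its atrial sum (1020 CPM) was the lowest of the 12. The part of these features was not tested.

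**Figure D4:**
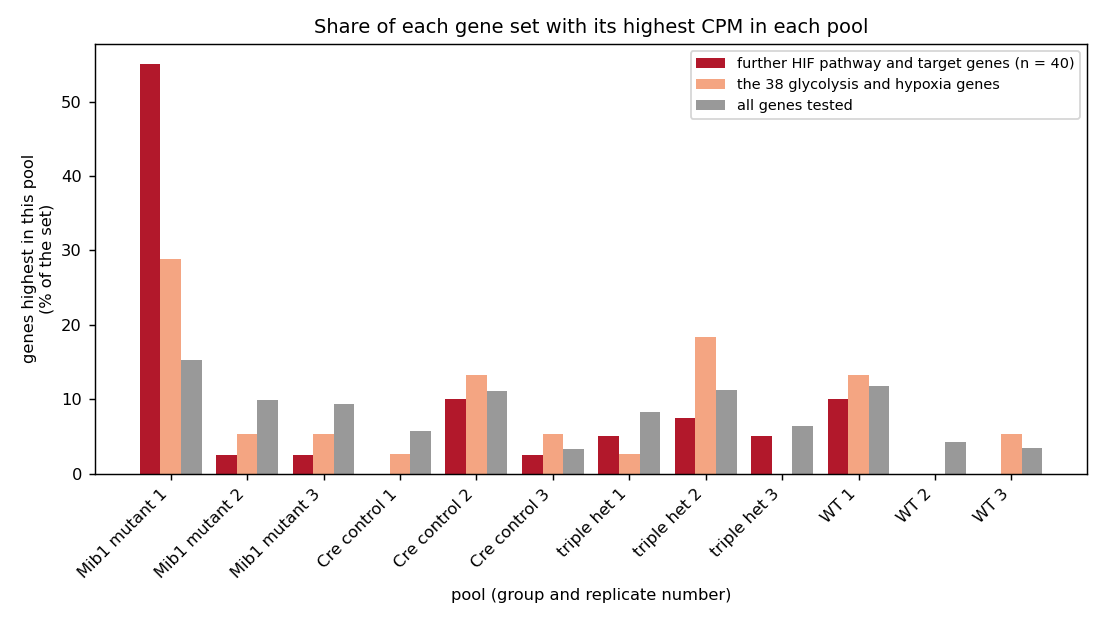
Share of each gene set (% of the set) that has its highest CPM in each of the 12 pools, for the 40 further HIF genes, the 38 genes of the list and all 13964 genes tested. Mib1 mutant pool 1 holds 55%, 28.9% and 15.3%.

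The second comparison set the triple heterozygote beside WT. None of the 38 genes was called by edgeR, and 6 (15.8%) passed an unadjusted p under 0.05, beside 8.66% of all genes. The same count was 0 with DESeq2, with limma-voom and in every other fit run. Over all genes, 0.0215% were called, 0.0143% higher and 0.00716% lower. Pools did not overlap in 1 gene that was higher in the triple heterozygote (2.63%, beside 7.67% of all genes) and in 6 that were lower (15.8%, beside 9.19%). The 6 were Pfkfb2, Pdk1, Epas1, Egln3, Hk2 and Egln1, and the median over the 38 was 0.02, beside 0 for all genes. Erythroid markers summed to 7280 to 8500 CPM in the triple heterozygote, against 4520 to 5300 CPM in WT. Of 13 tested, 11 had positive and 2 negative fold changes, with a median of 0.53. The 2 of them called higher were the only 2 genes called higher among all genes. The part of the erythroid markers in the values of the 38 was not tested.

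Pfkfb2, the cardiac form of the bifunctional regulator, was at 13.2, 14.9 and 15.6 CPM in the triple heterozygote pools, against 18.5, 17.9 and 17.1 CPM in the WT pools. Each triple heterozygote pool was lower than each WT pool, and the difference was -0.29 (SE 0.10, edgeR adjusted p 0.559). Pdk1 was at 384, 340 and 369 CPM in the triple heterozygote pools, against 450, 406 and 420 CPM in the WT pools, a difference of -0.22 (SE 0.09, edgeR adjusted p 0.565). Ankrd37 went the other way, with 4.99, 6.46 and 5.15 CPM in the triple heterozygote pools, against 3.55, 3.2 and 4.27 CPM in the WT pools. That difference was 0.61 (SE 0.21, edgeR adjusted p 0.559). Egln3 was at 41.1, 46.3 and 42.7 CPM in the triple heterozygote pools, against 54, 57 and 57.9 CPM in the WT pools, and differed by -0.37 (SE 0.17, edgeR adjusted p 0.569). The genes called in the first comparison, and Hif1a, had fold changes near 0 here. Aldoc differed by 0.10 (95% interval -0.17 to 0.36), Ldhb by 0.03 (-0.13 to 0.19) and Hif1a by -0.07 (-0.28 to 0.14).

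**Figure D5:**
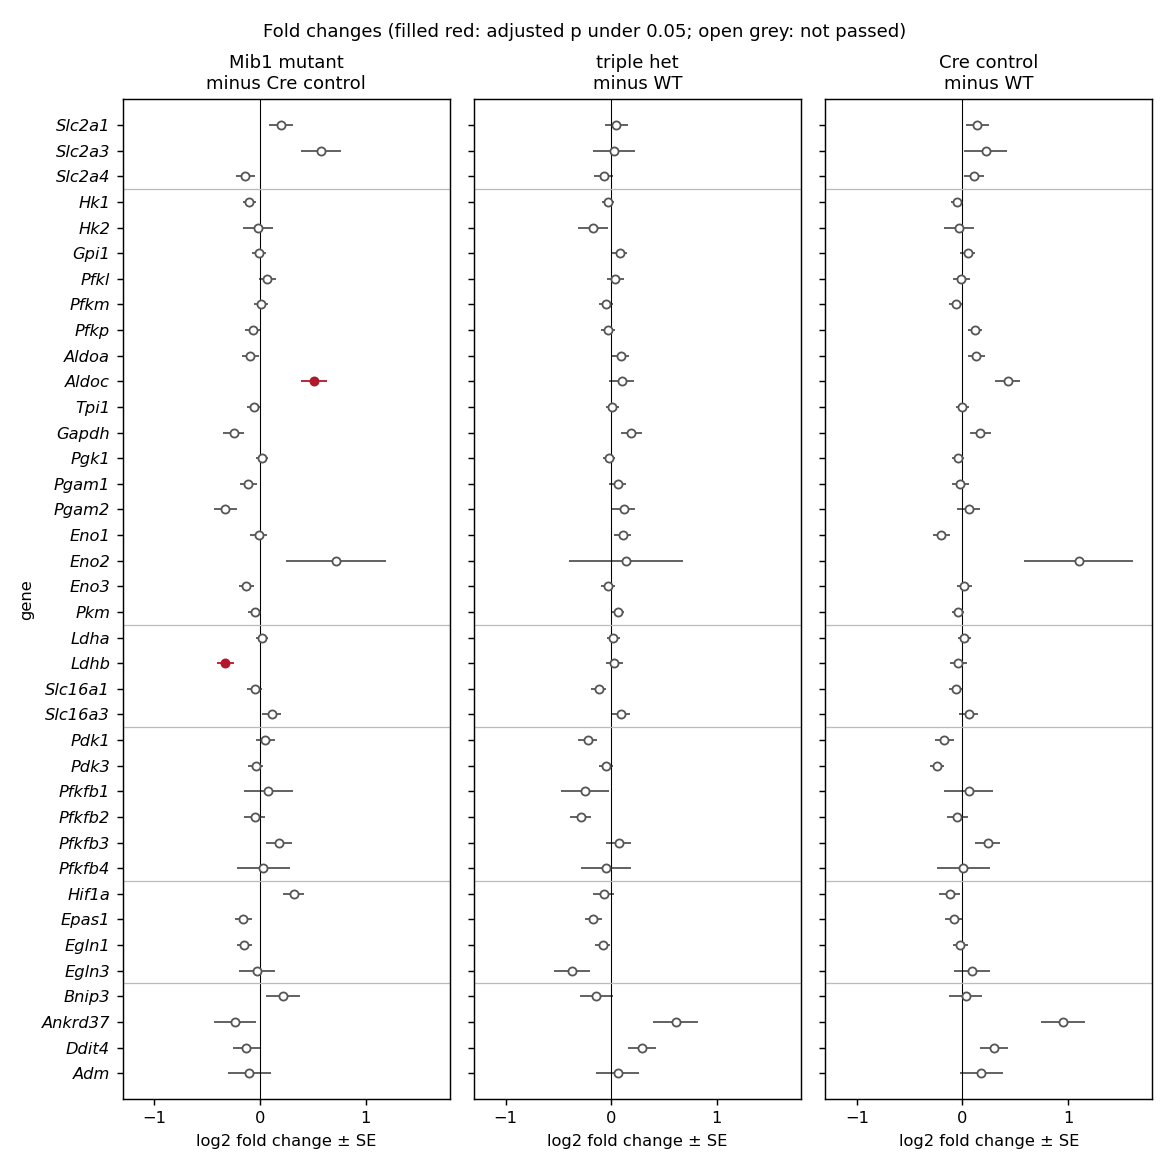
Log2 fold change and SE of each of the 38 genes in 3 comparisons, with filled red points for an adjusted p under 0.05 by edgeR. Aldoc (0.51) and Ldhb (-0.33) are filled in the comparison of Mib1 mutant and Cre control, and no gene is filled in the other two.

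Whether the effects of the first and second comparisons differed was tested directly, as the Mib1 mutant effect minus the triple heterozygote effect. Of the 38 genes, 0 were called by edgeR and by DESeq2, beside 0.516% of all genes by edgeR (0.322% higher and 0.193% lower), and 8 (21.1%) passed an unadjusted p under 0.05, beside 13.8% of all genes. The smallest p-values were those of Ldhb (-0.36, SE 0.11), Gapdh (-0.44, SE 0.14) and Ankrd37 (-0.84, SE 0.29), at edgeR adjusted p of 0.201, 0.217 and 0.246. For Aldoc the difference of effects was 0.41 (SE 0.17, edgeR adjusted p 0.311). The call of Aldoc and Ldhb in the Mib1 mutant and its absence in the triple heterozygote are therefore not shown to differ between the genotypes.

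The third comparison set the Cre control beside WT, which differ by the driver and the flox allele together. The level of Mib1 differed too, with a mean of 105 CPM in the Cre control and 136 CPM in WT, without overlap. That difference was -0.37 (SE 0.09, edgeR adjusted p 0.15), and its part in the differences below was not tested. Again edgeR called 0 of the 38 genes, beside 0.279% of all genes (0.251% higher and 0.0286% lower), and 6 passed unadjusted (15.8%, beside 8.43%). Pools did not overlap in 3 genes that were higher in the Cre control (7.89%, beside 8.9% of all genes), Ankrd37, Aldoc and Pfkp, and in 3 that were lower (7.89%, beside 10.2%), Pdk3, Eno1 and Pdk1. The Cre control pools held 6.47, 6.73 and 8.05 CPM of Ankrd37, against 3.55, 3.2 and 4.27 CPM in the WT pools. Its log2 fold change of 0.95 (SE 0.21, 95% interval 0.51 to 1.39) had an edgeR adjusted p of 0.0806. It passed in 1 of the 12 fits that left out 1 pool, where the edgeR adjusted p reached 0.401, and in 3 of 10 other alternatives. In the fits that passed, the adjusted p was 0.0255 with DESeq2. With edgeR it was 0.0114 when low counts were kept, 0.0463 from the 6 libraries of the comparison and 0.0375 without Mib1 mutant pool 3.

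Aldoc differed by 0.43 between Cre control and WT (SE 0.12, edgeR adjusted p 0.257), with the per-pool values given above. The order of the groups for Aldoc was therefore Mib1 mutant, Cre control, triple heterozygote and WT, and the pools of the triple heterozygote and WT overlapped. Pdk3, an X-linked gene, had 79.8, 77.2 and 87.2 CPM in Cre control pools, against 99, 93.2 and 96.2 CPM in the WT pools. It differed by -0.24 (SE 0.07, edgeR adjusted p 0.287), and the Mib1 mutant pools, at 77.4 to 80.6 CPM, were on the side of the Cre control. Eno1 was also lower without overlap, with 887 to 968 CPM in the Cre control and 1030 to 1100 CPM in WT, a difference of -0.20 (SE 0.08, edgeR adjusted p 0.532). The first comparison and this one share the 3 Cre control pools, and the second and this one share the 3 WT pools.

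Ratios of related enzymes within a library do not depend on its total. Per kilobase, Ldhb over Ldha was 0.841, 0.884 and 0.86 in the Mib1 mutant pools, against 0.97, 1.24 and 1.11 in the Cre control pools, 1.14 to 1.17 in the triple heterozygote and 1.12 to 1.18 in WT. The ratio was below 1 in all 3 Mib1 mutant pools and in Cre control pool 1, and above 1 in the other 8. Aldoc over Aldoa was 0.0177, 0.0141 and 0.0165 in the Mib1 mutant pools, against 0.0107, 0.0107 and 0.0104 in the Cre control pools, 0.00762 to 0.00906 in the triple heterozygote and 0.00844 to 0.00893 in WT. Aldolase C was thus a small share of aldolase transcripts in every pool. Epas1 over Hif1a was 0.224, 0.211 and 0.176 in the Mib1 mutant pools, against 0.266, 0.286 and 0.296 in the Cre control pools, without overlap. Triple heterozygote pools held 0.225, 0.292 and 0.255 for this ratio, and WT pools 0.268, 0.29 and 0.267. Also without overlap was Slc2a3 over Slc2a1, at 0.0948 to 0.126 for Mib1 mutant pools against 0.0762 to 0.0874 for Cre control pools. So was Pfkp over Pfkl, at 0.51 to 0.526 for Mib1 mutant pools against 0.533 to 0.611 for Cre control pools. All other ratios of related genes that were computed overlapped between these groups. The ratios are given as a description, and no test was run on them.

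Other genes of the pathway showed few calls. Tested were 27 further glycolytic and sugar genes, 25 genes of the pentose phosphate path and of glycogen, and 16 regulators of glycolytic genes. In each of the 4 contrasts edgeR called 0 of them. In the first comparison 4, 1 and 1 had an unadjusted p under 0.05, beside 14% of all genes, with medians of -0.07, -0.05 and -0.04. Between triple heterozygote and WT the counts were 2, 4 and 6, beside 8.66% of all genes. Between Cre control and WT they were 2, 4 and 4, beside 8.43%. The 25 and the 16 genes thus had larger shares than all genes in these 2 contrasts. For the difference of effects the counts were 4, 4 and 3, beside 13.8%. Among the 40 further HIF genes, 1 rose in the Mib1 mutant relative to the Cre control and 0 fell (2.5%, beside 1.5% of all genes), and 9 passed unadjusted. Loxl2, a lysyl oxidase that cross-links collagen, was at 410, 338 and 347 CPM in the Mib1 mutant pools, against 283, 247 and 289 CPM in the Cre control pools. It rose by 0.42 (SE 0.08, edgeR adjusted p 0.0175), a call lost without Mib1 mutant pool 1 (0.0667) or Cre control pool 2 (0.0983), without both pools with Xist near 0 (0.112) and in the fit restricted to 6 libraries (0.121).

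Bhlhe40, a transcriptional repressor induced by HIF, was the only one of the 40 called between Cre control and WT, where 0.279% of all genes were called, and 9 of the 40 passed unadjusted, beside 8.43% of all genes. Its level was 58, 54.5 and 63.2 CPM in Cre control pools, against 40.2, 37.6 and 38.5 CPM in the WT pools, and the Mib1 mutant pools held 58.2 to 69.8 CPM. The pools of the Cre line were thus all above the 6 others, since the triple heterozygote held 36.2 to 46 CPM. Bhlhe40 rose by 0.60 (SE 0.10) in the Cre control, at an edgeR adjusted p of 0.0144, a call lost without Cre control pool 3 (0.0974) or WT pool 1, 2 or 3 (0.0609, 0.11 and 0.0859). Between triple heterozygote and WT, 0 of the 40 were called by edgeR and 4 passed unadjusted, beside 0.0215% and 8.66% of all genes.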

How the data were processed

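PolyA RNA of 12 pools (4 genotypes, 3 pools each) was sequenced as single reads of 60 bases from directional libraries, per the labels' protocols. What the authors deposited is a single table of expected counts per gene from RSEM, of which 9.64% were not whole numbers. RSEM, cutadapt, limma, bcl2fastq 2.20.0.422 and the build GRCm38 are named in the submitters' processing notes. The sources used here do not give the annotation release, aligner or strand setting. RSEM divides reads that match several genes, so closely related genes are less certain.

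The 9 columns that are not WT were matched to samples by the alleles their names abbreviate, and those called mutant to the triple heterozygote because they name neither flox nor Cre. This is an inference from names. All 12 columns were used and 0 left out.

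Rounded counts were tested by edgeR 4.0.16 under R 4.3.3 (glmQLFit and glmQLFTest, two-sided, TMM scaling, filterByExpr), in 1 fit of 12 libraries and 4 groups with 8 residual degrees of freedom. Of 38293 identifiers, 13964 were tested, which held 99.9% of counts. Adjustment by Benjamini-Hochberg was over all genes tested, and the threshold was 0.05. SE is the size of a log2 fold change divided by the square root of F. GENCODE M21 (GRCm38) gave positions and exonic lengths, and RefSeq the promoters. No 2 replicate libraries were duplicates, since their chi-square over its degrees of freedom was 2.05 to 13.3. The procedure was tested on simulated data.

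Alternatives were median-ratio scaling, other filters, limma-voom 3.58.1, DESeq2 1.42.0, fewer libraries, a replicate block, a sex-mix covariate and each pool left out. Leaving out both pools with Xist near 0 was added after the data were seen. The 38 genes and all lists were chosen with earlier results of these data known. Genes of the list that were called or had the 3 smallest p-values in a contrast are given pool by pool, as are others chosen after their values were seen. Genes outside the list are named where they were called, by smallest p, and otherwise as stated. One gene of a further list was left out of that list and is not reported here.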

Additional observations from a re-analysis of the deposited data

How the results depend on the processing

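The count of the 38 genes called between Mib1 mutant and Cre control was 2 and ranged over 0 to 3 when 1 pool was left out. Beside the share of all genes called in the same fit, it was 4 with no filter on low counts (Pgam2 and Slc2a3 added, 2.13% of all), 1 with the sex mix as a covariate (Ldhb, 1.55%), 0 in a fit of only the libraries compared (0.687%), and 0 without both pools with Xist near 0 (0.78%). With the replicate number as a block it was 3 (2.28%), with Hif1a added at an edgeR adjusted p of 0.0309. Without Mib1 mutant pool 1 it was 0, beside 161 of all genes. Over the same fits the log2 fold change of Aldoc was 0.38 to 0.56 and that of Ldhb -0.39 to -0.26. In Cre control and WT the count was 0, with 0 to 1 when 1 pool was left out, and 1 with no filter, with DESeq2 and in a fit of only the libraries compared (0.644%, 0.587% and 0.501% of all genes). It was 0 in every fit for the triple heterozygote and for the difference of effects. The count of all genes called between Mib1 mutant and Cre control was 210, and 93 to 476 over the alternatives (116 to 415 with 1 pool left out). For triple heterozygote and WT it was 3 (1 to 54), for the difference of effects 72 (28 to 246) and for Cre control and WT 39 (23 to 144). The cause of these changes was not tested. Deviations of same-numbered pools from their group means had correlations of 0.131, 0.213 and 0.032 for Mib1 mutant and Cre control. Pools of these groups with different numbers had -0.08, -0.059, -0.238, 0.028, 0.14 and -0.167. For triple heterozygote and WT, same-numbered pools had 0.108, 0.007 and -0.078, and the others -0.184 to 0.187. For Cre control and WT, same-numbered pools had 0.088, 0.084 and -0.099, and the others -0.171 to 0.099. Whether same-numbered pools were prepared together is not stated in the sources used here, and these values do not settle it. Under the block 318, 3, 109 and 59 genes were called in the 4 contrasts. With 3 pools a group, low genes such as Eno2, Pfkfb1, Pfkfb4, Ankrd37 and Adm have wide errors (SE 0.20 or more).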
